A study of Mus musculus with 12 samples.

Results

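Frizzled proteins are the cell-surface receptors for WNT ligands, and Lgr4, Lgr5 and Lgr6 are the receptors for R-spondins. The 10 genes described here are Fzd1, Fzd2, Fzd3, Fzd6, Fzd7, Fzd8, Fzd9, Lgr4, Lgr5 and Lgr6, taken by symbol from tables that hold 23735 gene models under 23492 symbols. Each matched a single model. The set was chosen with results of these data known: Fzd9 is in it because its RNA was nearly lost in 2 Foxc1 knockouts. Values of the anagen knockout comparison and of the K14Cre knockout comparison are therefore given as a description, with no test read from them.

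The study measured mRNA in hair follicle stem cells (HFSCs) that flow cytometry had sorted out of the dorsal skin of mice whose follicles kept or lacked Foxc1, a forkhead transcription factor. Its 12 libraries fall in 7 groups. Second telogen (resting phase) iKO cells came from 2 males at postnatal day 60 of a mixed Black Swiss and C57BL/6 strain, in which tamoxifen-induced Sox9CreER had removed Foxc1. Second telogen cKO cells, in which K14Cre had removed Foxc1, came from 1 mouse of each sex, the male aged 42 days and the female aged 46 days, of the Black Swiss strain. Second telogen WT cells came from a male and a female of the same strain and days. Anagen (growth phase) iKO cells and anagen Het cells came from 2 males each at day 30 of the mixed strain; all 4 mice carried Sox9CreER and received tamoxifen, and the Het mice were heterozygous for Foxc1. Anagen II Shh-Het and first telogen Shh-Het cells came from 1 Agouti female each, at about days 26 and 23, heterozygous for Shh and called WT in their titles. K14Cre acts in the whole skin epithelium from before birth, whereas Sox9CreER acts in Sox9-expressing cells once tamoxifen is given. No anagen WT group and no second telogen Sox9CreER Het group was analysed here.

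WNT ligands bind a Frizzled together with Lrp5 or Lrp6, and the signal stabilises beta-catenin or, through other partners, orients cells in the plane of the tissue. The membrane ligases Rnf43 and Znrf3 remove Frizzleds from the surface. R-spondins bound to an Lgr receptor take these ligases away, so that more Frizzled remains. In the hair follicle, WNT signalling starts the growth phase, and in mouse skin Lgr5 marks cells of the bulge and hair germ while Lgr6 marks cells above the bulge.

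The levels are FPKM (fragments scaled to the length of the transcript and to the size of the library, so that genes can be compared per length), with 1 value per group pooled over its libraries. No value per library and no read depth was given, so spread within a group cannot be shown and sequencing depth is unknown. A gene is called where the authors' deposited q, their p adjusted over many tests, is below 0.05; rose and fell are used for called genes. The standard error (SE) given beside a log2 fold is that fold divided by the deposited statistic, and is approximate. Foxc1 itself had 3.17 FPKM in second telogen iKO, 1.66 in second telogen cKO and 27.5 in second telogen WT cells, and 1.32 in anagen iKO and 22.5 in anagen Het cells. Of 9 bulge markers, Krt14, Cd34, Sox9, Lhx2 and Itga6 were above 50 FPKM in every group, whereas Nfatc1 had 19.7 to 80.0 FPKM, with its 3 lowest values in the anagen groups, and Tcf7l1 had 8.36 to 45.3 FPKM. The other bulge markers, Krt5 and Krt15, are listed at 0 in 5 and 3 groups, where the deposited status marks an estimate that failed on too many fragments.

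The 2 members with the widest range over the groups, Fzd9 and Lgr6, are shown first with the sequence at their start sites. RefSeq's promoter table (build GRCm38.p6) held an entry for 5 of the 10 members. The 250 bases before the start of Fzd9 (chr5:135251048-135251297, minus strand) and of Lgr6 (chr1:135105277-135105526, minus strand) are printed 5′ to 3′, with CpG dinucleotides in capitals.
Fzd9: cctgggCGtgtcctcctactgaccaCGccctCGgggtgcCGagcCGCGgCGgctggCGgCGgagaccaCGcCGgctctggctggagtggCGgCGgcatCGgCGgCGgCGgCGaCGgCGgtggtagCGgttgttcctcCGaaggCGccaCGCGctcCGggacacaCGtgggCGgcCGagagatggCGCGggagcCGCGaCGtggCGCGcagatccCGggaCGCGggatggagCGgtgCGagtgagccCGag
Lgr6: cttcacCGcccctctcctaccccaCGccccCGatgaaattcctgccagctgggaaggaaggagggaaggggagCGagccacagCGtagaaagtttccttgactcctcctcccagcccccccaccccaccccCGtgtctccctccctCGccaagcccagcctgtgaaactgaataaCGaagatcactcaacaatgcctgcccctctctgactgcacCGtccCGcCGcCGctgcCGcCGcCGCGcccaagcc
The Fzd9 run holds 42 CpGs and the Lgr6 run holds 16. Over the full 300-base entries, Fzd9 had 53 CpGs and 78.0% G and C, at or above 99.7% and 98.2% of all 32851 entries; Lgr6 had 24 CpGs and 67.7% G and C, at or above 81.6% and 87.4%. The forkhead letters TAAACA, read on both strands, are in 13.4% of all entries. The longer forkhead letters GTAAACA, which contain them, are in 3.65%. The TCF/LEF letters CTTTGAT are in 3.73%. None of these was found on either strand in the entries of Fzd1, Fzd7, Fzd9, Lgr4 or Lgr6, which says only that the letters are not in those windows.

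Fzd2, Fzd7 and Fzd1, closely related receptors that can signal through beta-catenin, had the highest Frizzled levels in every group. Per length, Fzd2 had 111 FPKM in second telogen iKO, 129 in second telogen cKO, 109 in second telogen WT, 146 in anagen iKO, 148 in anagen Het, 92.0 in anagen II and 121 in first telogen cells. Fzd7 had 57.3, 90.7 and 86.3 FPKM in second telogen iKO, cKO and WT cells, 82.8 in anagen iKO and 99.8 in anagen Het, and 82.5 in anagen II and 148 in first telogen cells. Fzd1 lay between 41.4 FPKM (anagen Het) and 74.1 FPKM (first telogen). Together these 3 genes made up 77.4% to 87.4% of the summed FPKM of the 10 Frizzled genes in the tables (the 7 members with Fzd4, Fzd5 and Fzd10), a sum of 271 to 416 FPKM per group. In mm9 these models span chr11:102465745-102469372 (Fzd2), chr1:59538991-59543799 (Fzd7) and chr5:4753839-4758216 (Fzd1).

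Fzd6, which in mice orients hairs through planar cell polarity, came next, with 24.2, 18.2 and 21.7 FPKM in second telogen iKO, cKO and WT cells, 32.7 in anagen iKO, 32.8 in anagen Het, 34.7 in anagen II and 30.9 in first telogen cells. Fzd3, its closest relative, had 16.3, 10.5 and 17.1 FPKM in second telogen iKO, cKO and WT cells, 7.56 in anagen iKO, 11.3 in anagen Het, 3.36 in anagen II and 15.5 in first telogen cells. It was lowest in the anagen II library and highest in second telogen WT cells. Fzd8 stayed between 3.71 and 6.57 FPKM. The mm9 spans are chr15:38837826-38869736 for Fzd6, chr14:65811278-65881300 for Fzd3 and chr18:9212854-9216199 for Fzd8. Fzd9 had 0.495 FPKM in second telogen iKO, 0.264 in second telogen cKO and 7.73 in second telogen WT cells, 0.139 in anagen iKO and 5.16 in anagen Het cells, and 3.21 in anagen II and 9.86 in first telogen cells. Only the 3 knockout groups were below 1 FPKM, and the 4 groups with intact or heterozygous Foxc1 were above 3. Its share of the Frizzled sum was 0.04% to 0.18% in the knockout groups and 1.04% to 2.52% in the others.

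Among the R-spondin receptors, Lgr4, the most widely expressed of them in mouse tissues, varied least (chr2:109757804-109854414 in mm9), from 47.0 FPKM in second telogen iKO to 67.6 in first telogen cells. Lgr5 had 76.3, 92.7 and 102 FPKM in second telogen iKO, cKO and WT cells, 54.2 in anagen iKO, 55.9 in anagen Het, 72.9 in anagen II and 102 in first telogen cells. Its mm9 interval in the tables, chr10:114887370-115024836, also holds the model A930009A15Rik, which had 0.509 to 1.36 FPKM. Lgr6, at chr1:136882930-137001853 in mm9, had 16.8, 20.8 and 16.4 FPKM in second telogen iKO, cKO and WT cells, 2.37 in anagen iKO, 5.85 in anagen Het, 5.50 in anagen II and 33.3 in first telogen cells. All 4 telogen groups were above all 3 anagen groups for Lgr6. It made up 2.00% of the summed Lgr FPKM in anagen iKO and 16.4% in first telogen cells. From its lowest to its highest group Fzd9 varied 71.1-fold, Lgr6 14.04-fold, Fzd3 5.10-fold and Fzd7 2.58-fold. The other 6 members varied 1.44-fold to 1.91-fold. The highest values of Fzd9, Lgr6 and Fzd7 and the lowest of Fzd3 came from Shh-Het groups with 1 library each. Fibroblast and dermal papilla markers summed to 1026 FPKM in the anagen II and 2107 in the first telogen library. In the replicated groups these markers summed to between 13.6 (second telogen iKO) and 103 FPKM (anagen Het). Their part in the levels and ranges was not tested. Over the 5 replicated groups Fzd9 ran from 0.139 to 7.73 FPKM and Lgr6 from 2.37 to 20.8. There Fzd3 ran from 7.56 to 17.1 FPKM and Fzd7 from 57.3 to 99.8.

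**Figure D1:**
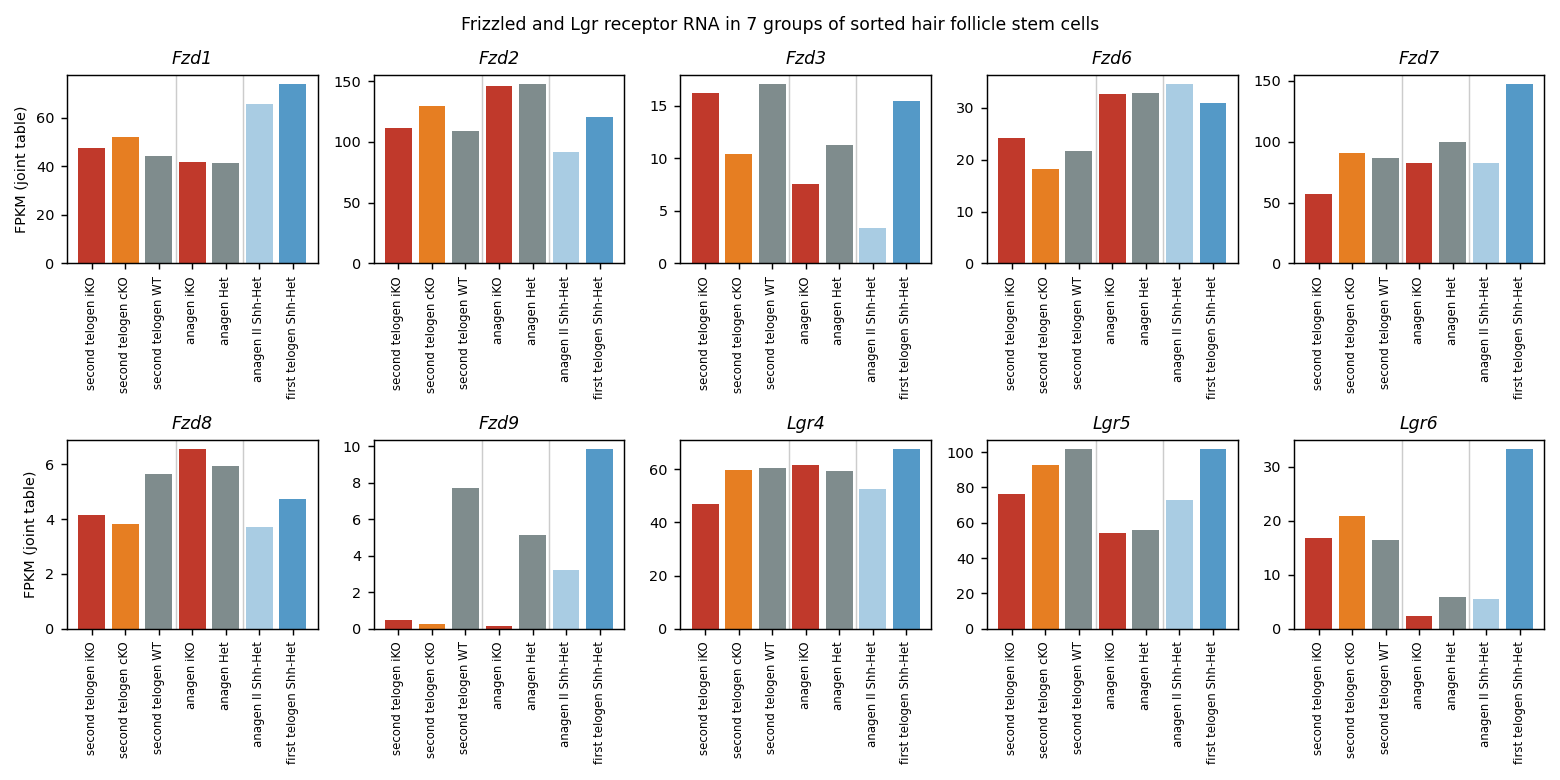
FPKM of each of the 10 receptor genes (vertical axis from 0, scale set per gene) in the 7 groups, 1 bar per group from the joint table; no error can be drawn because each group has 1 pooled value. Fzd9 is at 0.139 to 0.495 FPKM in the 3 knockout groups and at 3.21 to 9.86 in the others, and Lgr6 is at 2.37 to 5.85 FPKM in the 3 anagen groups and at 16.4 to 33.3 in the 4 telogen groups.

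**Figure D2:**
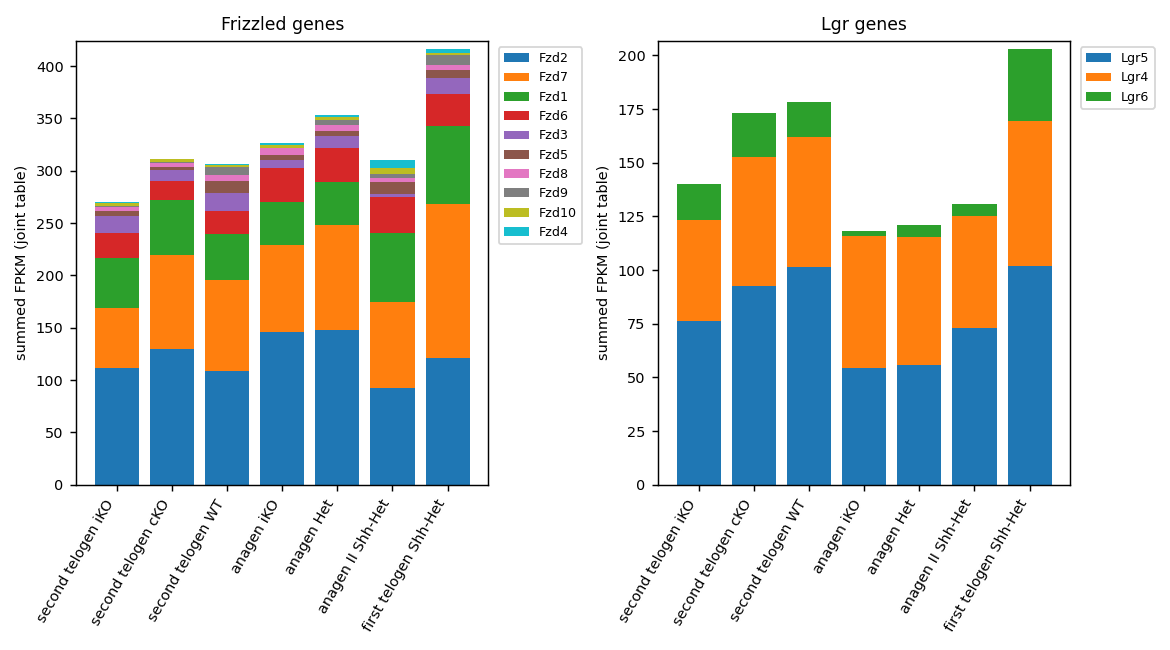
Summed FPKM of the 10 Frizzled genes (left) and 3 Lgr genes (right) per group, from the joint table, with 1 colour per gene. Fzd2, Fzd7 and Fzd1 fill 77.4% to 87.4% of each Frizzled bar, and Fzd9 at most 2.52%.

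Among the 5 groups with 2 libraries, any pair could be compared with the authors' joint test unless the set was chosen on it. Of 8 such pairs, Lgr6 was called in 6, Fzd3 in 5, Fzd6, Fzd7 and Lgr5 in 4 each, Fzd8 in 2, and Fzd1, Fzd2 and Lgr4 in 0; over all genes tested, 24.8% of these tests were called. These pairs share groups and are not independent. Fzd9 is left out of this count, because it was chosen for its levels in 4 of the 5 groups. Neighbours in the order of levels were told apart less often. For Lgr6 the steps from second telogen cKO to iKO and on to WT cells were not called. The step from second telogen WT to anagen Het cells was called (q = 0.000444, authors' deposited table). For Fzd3 the step from second telogen iKO (16.3 FPKM) to anagen Het cells (11.3 FPKM) was called (q = 0.0337), whereas second telogen WT and iKO cells, and anagen Het and second telogen cKO cells, were not told apart. For Lgr5 neither neighbouring step tested was called, from second telogen cKO to iKO cells (q = 0.373) or from second telogen iKO to anagen Het cells (q = 0.101).

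Second telogen iKO cells were compared with second telogen WT cells to ask how the receptors stood without Foxc1 in a resting follicle. In this comparison 2 of the 10 members fell, Fzd9 and Fzd7, and 0 rose; the authors' joint table called 12.9% of 13714 genes, 7.01% higher and 5.88% lower. Fzd9 had 0.495 FPKM in iKO and 7.73 FPKM in WT cells, 15.6-fold lower in iKO (log2 fold -3.97, SE 0.45, q = 0.000444 in the authors' deposited table). The WT libraries are among those the set was partly chosen on, and the set was chosen with results of these data known. The fold, q and call of Fzd9 are therefore given as a description, and its place in the count is not read as a result. Fewer cells that express a gene and less of its RNA per cell cannot be told apart in these sorted populations. Fzd7 had 57.3 FPKM in iKO and 86.3 FPKM in WT cells, 1.51-fold lower in iKO (log2 fold -0.59, SE 0.27, q = 0.0271 in the authors' deposited table).

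The other 8 members were not called between second telogen iKO and WT cells. Lgr5 had 76.3 FPKM in iKO and 102 in WT cells (log2 fold -0.41, SE 0.30, q = 0.174 in the authors' deposited table), and Lgr4 had 47.0 in iKO and 60.3 in WT cells (log2 fold -0.36, SE 0.28, q = 0.225). Lgr6 had 16.8 FPKM in iKO and 16.4 in WT cells (log2 fold 0.03, SE 0.26). The median log2 fold was -0.22 over the members and -0.02 over all genes tested. The iKO and WT groups also differ in strain, age, sex and tamoxifen. Markers of the junctional zone and sebaceous gland summed to 382 FPKM in iKO and 136 in WT cells, with 5 of 6 higher in iKO and none at 0. Immune markers summed to 91.5 FPKM in iKO and 66.0 in WT cells, with 5 of 5 higher and Ptprc called. Fibroblast and dermal papilla markers summed to 13.6 FPKM in iKO and 23.4 in WT cells. Of these, 5 of 8 were lower, Col1a1 and Col1a2 were called, and Sox2 was listed at 0 in iKO. Among melanocyte markers 4 of 6 were higher, with Dct and Tyrp1 called higher and Mitf lower. The part of these markers in these results was not tested.

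Second telogen cKO cells, the other knockout at this stage, share those WT libraries, and this contrast was used to choose the set. In the authors' telogen table, 1 of the 10 members was called, Fzd9, lower; 6.62% of 13551 genes were called, 3.75% higher and 2.87% lower, and nothing is read from that count. Fzd9 had 0.254 FPKM in cKO and 7.45 in WT cells (log2 fold -4.87, SE 0.65 in the authors' deposited table). Fzd3 had 10.04 FPKM in cKO and 16.5 in WT cells, which the telogen table did not call (log2 fold -0.72, q = 0.0738) and the joint table did (log2 fold -0.71, q = 0.00285). Fzd7 had 87.0 FPKM in cKO and 83.1 in WT cells, and Lgr6 had 20.0 FPKM in cKO and 15.8 in WT cells; neither was called. The median log2 fold was -0.07 over the members and 0.00 over all genes tested. Suprabasal markers summed to 4703 FPKM in cKO and 3057 in WT cells, with 5 of 5 higher in cKO and 0 called. Junctional zone and sebaceous markers summed to 291 FPKM in cKO and 131 in WT cells, with 4 of 6 higher, Krt79 called higher and Plet1 called lower. Fibroblast and dermal papilla markers summed to 71.7 FPKM in cKO and 22.5 in WT cells, with 3 of 8 higher and Col1a1 called. None of these markers was at 0, and their part in the receptor values was not tested.

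Both telogen knockouts can be set against each other without the WT libraries, a comparison added after the values were seen. Between second telogen iKO and second telogen cKO cells, 2 of 10 members were called, Fzd3 higher and Fzd7 lower in iKO; 14.9% of 13711 genes were called, 7.53% higher and 7.35% lower. Fzd3 had 16.3 FPKM in iKO and 10.5 in cKO cells (log2 fold 0.64, SE 0.28, q = 0.00706 in the authors' deposited table). Fzd7 had 57.3 FPKM in iKO and 90.7 in cKO cells, 1.58-fold lower in iKO (log2 fold -0.66, SE 0.26, q = 0.0115). Fzd9 was below 1 FPKM in both and was not called (q = 0.259), which is a description because its cKO level was used to choose the set. The members' median log2 fold was -0.18, and that of all genes tested -0.03. These groups differ in driver, tamoxifen, strain, age and sex. Foxc1 RNA was also called higher in iKO (3.17 FPKM) than in cKO cells (1.66 FPKM, q = 0.0098 in the authors' deposited table). Suprabasal markers summed to 3494 FPKM in iKO and 4901 in cKO cells, with 5 of 5 lower in iKO. Fibroblast and dermal papilla markers summed to 13.6 FPKM in iKO and 74.6 in cKO cells, with 5 of 8 lower, Col1a1 called and Sox2 listed at 0 in iKO. Immune markers summed to 91.5 FPKM in iKO and 76.8 in cKO cells, with 4 of 5 higher and Ptprc, Cd3e and Cd207 called, and junctional zone and sebaceous markers to 382 in iKO and 303 in cKO cells, with 4 of 6 higher. Their part in these results was not tested.

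In anagen, the knockout comparison also belonged to the choice of the set, so its values are a description. The authors' anagen table called 3 of the 10 members, Fzd9, Lgr6 and Fzd3, all lower in iKO; it called 10.3% of 13716 genes, 5.18% higher and 5.08% lower. Fzd9 had 0.147 FPKM in iKO and 5.47 in Het cells (log2 fold -5.22, SE 0.65 in the authors' deposited table). Lgr6 had 2.51 FPKM in iKO and 6.20 in Het cells (log2 fold -1.30, SE 0.31), and Fzd3 had 8.01 in iKO and 11.9 in Het cells (log2 fold -0.57, SE 0.24). The other 7 were not called, with log2 folds from -0.27 (Fzd7) to 0.15 (Fzd8), and the median over the members and over all genes tested was -0.03 in both cases. In the same comparison the fibroblast and dermal papilla list summed to 58.3 FPKM in iKO and 110 in Het cells, with 8 of 8 markers lower in iKO and none at 0, and the hair shaft and root sheath list to 87.9 FPKM in iKO and 135 in Het cells, with 6 of 6 lower. The suprabasal list summed to 938 FPKM in iKO and 503 in Het cells, with 5 of 5 higher. Of the bulge markers, the anagen table called Cd34 and Nfatc1 lower in iKO; in the joint table Cd34 had 230 FPKM in iKO and 408 in Het cells, and Nfatc1 had 26.6 in iKO and 39.5 in Het cells. The part of these lists in the receptor values was not tested.

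**Figure D3:**
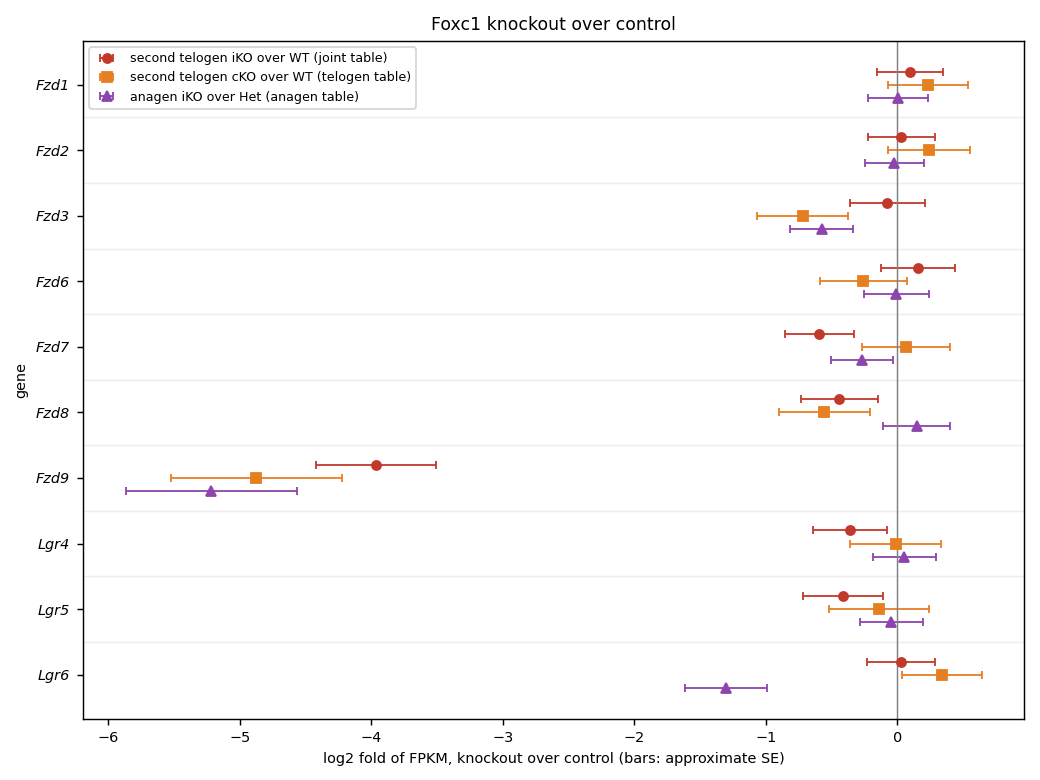
Log2 fold of FPKM, knockout over control (horizontal axis), for the 10 genes in 3 comparisons: second telogen iKO over WT, second telogen cKO over WT, and anagen iKO over Het; bars are the approximate SE, and both telogen comparisons share their WT libraries. Fzd9 lies at -3.97, -4.87 and -5.22, while Lgr6 lies at 0.03, 0.34 and -1.30.

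On chromosome 5 of mm9, the Fzd9 model spans chr5:135724808-135726917. Its neighbour at lower coordinates, Baz1b, a chromatin remodelling subunit, ends 2808 bases away and was not called in any of the 3 knockout comparisons, with 16.9 FPKM in second telogen iKO and 16.8 in WT cells, 15.6 in second telogen cKO and 16.2 in WT cells, and 24.7 in anagen iKO and 19.8 in anagen Het cells. The neighbour at higher coordinates, Fkbp6, lies 40656 bases away, was at or below 0.113 FPKM and was not tested by the authors.

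The resting stage was compared with the growing stage within the inducible knockout, second telogen iKO against anagen iKO cells, which share strain, sex and Cre driver and differ in age. Foxc1 RNA was also called higher in telogen iKO (3.17 FPKM) than in anagen iKO cells (1.32 FPKM, q = 0.00156 in the authors' deposited table). Here 5 of the 10 members were called: Lgr6 and Fzd3 rose in telogen, Fzd7 and Fzd8 fell, and Fzd9, called higher, was chosen on its anagen iKO level. The authors' joint table called 33.2% of 13787 genes, 17.6% higher and 15.5% lower. Lgr6 had 16.8 FPKM in telogen and 2.37 in anagen cells, 7.08-fold higher in telogen (log2 fold 2.82, SE 0.32, q = 0.000444 in the authors' deposited table). Fzd3 had 16.3 FPKM in telogen and 7.56 in anagen cells, 2.15-fold higher (log2 fold 1.11, SE 0.27, q = 0.000444). The anagen iKO library values are among those the set was chosen on, and Lgr6 and Fzd3 were called lower there.

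Fzd9 had 0.495 FPKM in telogen iKO and 0.139 in anagen iKO cells, both below 1 FPKM. Its log2 fold was 1.84 in the authors' deposited table and 0.39 with 1 added to each FPKM, and it is given as a description. Fzd7 had 57.3 FPKM in telogen iKO and 82.8 in anagen iKO cells (q = 0.0445 in the authors' deposited table), and Fzd8, a beta-catenin-coupled receptor, had 4.15 in telogen iKO and 6.57 in anagen iKO cells (q = 0.0323). Lgr5 had 76.3 FPKM in telogen and 54.2 in anagen cells and was not called (log2 fold 0.49, SE 0.28, q = 0.0693). The median log2 fold was -0.10 over the members and 0.01 over all genes tested.

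Second telogen WT cells were set against anagen Het cells as the matching control comparison, although strain, sex, age, the Het allele, Sox9CreER and tamoxifen differ with the stage. Here 4 of the 10 members were called: Lgr6, Lgr5 and Fzd3 rose in telogen WT, and Fzd6 fell; the authors called 25.4% of 13932 genes, 13.5% higher and 11.9% lower. Lgr6 had 16.4 FPKM in telogen WT and 5.85 in anagen Het cells, 2.81-fold higher in telogen WT (log2 fold 1.49, SE 0.28, q = 0.000444 in the authors' deposited table). Lgr5 had 102 FPKM in telogen WT and 55.9 in anagen Het cells, 1.82-fold higher (log2 fold 0.86, SE 0.30, q = 0.00156). Fzd3 had 17.1 in telogen WT and 11.3 in anagen Het cells (1.52-fold higher, q = 0.0176), and Fzd6 had 21.7 in telogen WT and 32.8 in anagen Het cells (1.51-fold lower, q = 0.0112). Fzd9 had 7.73 FPKM in telogen WT and 5.16 in anagen Het cells and was not called (q = 0.0968 in the authors' deposited table). Its levels in both of these groups were used to choose the set, so this is given as a description. The median log2 fold was 0.06 over the members and 0.00 over all genes tested.

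In both stage comparisons, markers of other cells differed as well. Suprabasal markers summed to 3494 FPKM in telogen iKO and 886 in anagen iKO cells, and to 3179 in telogen WT and 475 in anagen Het cells, with 5 of 5 higher in telogen each time. Hair shaft and root sheath markers summed to 6.24 FPKM in telogen iKO and 82.9 in anagen iKO cells, and to 11.4 in telogen WT and 128 in anagen Het cells, with 6 of 6 lower; Krt33b was listed at 0 in telogen iKO, and Krt33b and Krt81 in telogen WT cells. Junctional zone and sebaceous markers, the ones nearest to where Lgr6 is known in mouse skin, summed to 382 FPKM in telogen iKO and 213 in anagen iKO cells, with 5 of 6 higher, but to 136 in telogen WT and 181 in anagen Het cells, with 2 of 6 higher and none at 0. Immune markers summed to 91.5 FPKM in telogen iKO and 21.6 in anagen iKO cells, 4 of 5 of them higher. In telogen WT and anagen Het cells the sums were 66.0 and 11.0, again 4 of 5 higher. Fibroblast and dermal papilla markers summed to 13.6 FPKM in telogen iKO and 55.0 in anagen iKO cells, 7 of 8 lower. In the controls the sums were 23.4 and 103, 8 of 8 lower. Endothelial markers were lower for 5 of 5 each time. The part of these cells in the receptor values was not tested.

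The Shh-Het libraries give a stage pair without replicates, so no test was made and a change means past 2-fold with at least 1 FPKM in both. In the anagen II library 3 of the 10 members were past 2-fold lower than in the first telogen library and 0 past 2-fold higher, against 20.5% of 11603 genes past 2-fold, 8.76% higher and 11.7% lower. Lgr6 had 5.50 FPKM in anagen II and 33.3 in first telogen cells (6.04-fold lower), Fzd3 had 3.36 in anagen II and 15.5 in first telogen cells (4.60-fold lower), and Fzd9 had 3.21 in anagen II and 9.86 in first telogen cells (3.07-fold lower). Lgr5 had 72.9 FPKM in anagen II and 102 in first telogen cells. The median log2 fold was -0.44 over the members and -0.06 over all genes with at least 1 FPKM in both. Fibroblast and dermal papilla markers summed to 1026 FPKM in anagen II and 2107 in first telogen cells, 7 of 8 of them lower in anagen II. Immune markers summed to 23.6 in anagen II and 249 in first telogen cells, 5 of 5 lower. None of these was at 0. Of the bulge markers 7 of 9 were lower in anagen II, with Cd34, Krt15, Sox9 and Nfatc1 past 2-fold lower and Tcf7l1 past 2-fold higher. Cd34 had 129 FPKM in anagen II and 401 in first telogen cells. Suprabasal markers were lower for 4 of 5 and endothelial markers for 5 of 5, while hair shaft and root sheath markers were higher for 6 of 6. The part of all these markers in these values was not tested.

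**Figure D4:**
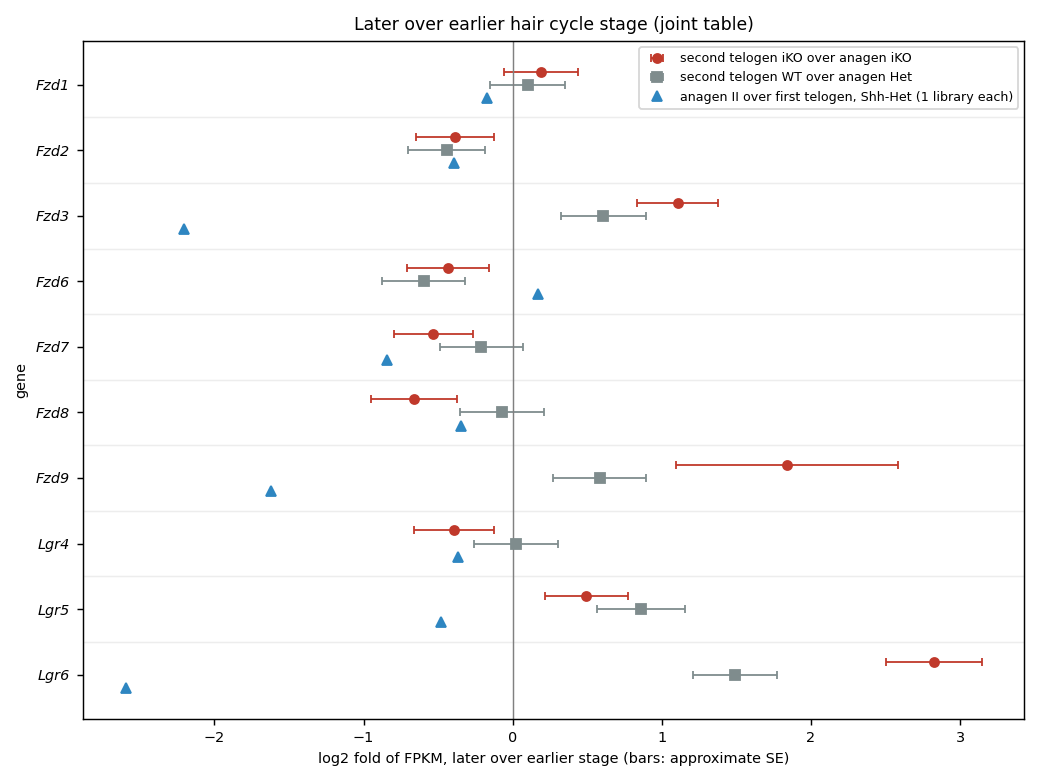
Log2 fold of FPKM, later over earlier hair cycle stage (horizontal axis), for the 10 genes in 3 pairs of groups of the joint table; bars are the approximate SE, and the anagen II pair has none because it has 1 library each. Lgr6 lies at 2.82 and 1.49 for telogen over anagen and at -2.60 for anagen II over first telogen, and Fzd3 at 1.11, 0.61 and -2.20.

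The genes whose levels followed those of a member most closely over the 7 groups were searched among 10988 genes that reached 5 FPKM, by Pearson's r of log2(FPKM + 1); the points share libraries and r is a description. For Fzd9 these were Foxc1 (r = 0.98), Meis1 (0.96), Selenbp1 (0.94), Mkl2 and Gas6 (both 0.93), and the 3 knockout groups, on which Fzd9 was partly chosen, set its pattern. For Lgr5 they were Ap2a2, Tnxb, Gm15645, Hebp1 and Tmem218, with r from 0.964 to 0.995. For Lgr6 they were Nrcam, Lmo7, Nr1d2, Zdhhc9 and Odc1, with r of 0.98 for each. A high r does not mean a change of like size. Beside Lgr5, Ap2a2 ran only from 19.9 to 24.2 FPKM over the groups, whereas Tnxb ran from 0.445 to 10.9. Beside Fzd9, Mkl2 ran only from 4.67 to 5.82 FPKM, whereas Foxc1 ran from 1.32 to 42.6.

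The genes that act with the receptors were read from 5 lists of 72 genes. Over all genes tested, 12.9% were called for second telogen iKO against WT cells and 6.62% for cKO against WT cells. The share was 10.3% for anagen iKO against Het cells. It was 33.2% for telogen against anagen iKO cells and 25.4% for telogen WT against anagen Het cells. The list counts are descriptions to be read beside these shares. Among 15 co-receptors and Frizzled partners, 14 were tested between second telogen iKO and WT cells, and 1 fell, the planar polarity cadherin Celsr1, with 10.2 FPKM in iKO and 14.8 in WT cells (q = 0.0297, authors' deposited table); the list's median log2 fold was -0.20 and that of all genes -0.02. Lrp6, a partner of Frizzleds in beta-catenin signalling, was not called there. In second telogen cKO against WT cells 0 of 14 were called in the telogen table. In anagen iKO against Het cells 3 of 14 were called lower: the WNT5A receptor Ror2, with 1.67 FPKM in iKO and 3.71 in Het cells, Ror1, with 2.27 in iKO and 3.73 in Het cells, and Celsr2, with 10.5 in iKO and 15.7 in Het cells. From anagen to telogen, 1 rose and 4 fell in iKO cells, and 1 rose and 4 fell in controls. Those that fell were Ptk7, Vangl1, Reck and Gpr124 in iKO cells, and Ror1, Ror2, Celsr2 and Reck in controls, so only Reck fell in both. The riser in each was Kremen1, a DKK receptor, with 28.5 FPKM in telogen iKO and 12.7 in anagen iKO cells, and 28.5 in telogen WT and 15.3 in anagen Het cells.

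The R-spondins and the ligases that clear Frizzleds make up the list of 7 genes nearest to the Lgr receptors, of which 5 were tested in each replicated comparison. Between second telogen iKO and WT cells 1 rose, Rspo1, an R-spondin ligand, with 1.84 FPKM in iKO and 0.906 in WT cells (q = 0.04999 in the authors' deposited table). In second telogen cKO against WT cells and in anagen iKO against Het cells 0 of 5 were called. Between telogen and anagen iKO cells 3 rose and 1 fell: Znrf3 had 4.61 FPKM in telogen iKO and 2.36 in anagen iKO cells (q = 0.000444), Rnf43 had 6.70 in telogen iKO and 4.39 in anagen iKO cells (q = 0.0275), Rspo3 had 0.525 in telogen iKO and 0.179 in anagen iKO cells, and Rspo1 had 1.84 in telogen iKO and 3.76 in anagen iKO cells. Between telogen WT and anagen Het cells Sdc4, a syndecan that binds R-spondin in frogs, rose, with 517 FPKM in telogen WT and 296 in anagen Het cells, and Rspo1 fell, with 0.906 in telogen WT and 4.13 in anagen Het cells. The list's median log2 fold was 0.22, 0.61 and 0.35 in these 3 tested comparisons, beside -0.02, 0.01 and 0.00 over all genes. It was 0.09 in second telogen cKO against WT cells, beside 0.00 over all genes, and -0.22 in anagen iKO against Het cells, beside -0.03.

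All 16 cytoplasmic WNT transducers were tested. Between second telogen iKO and WT cells 1 fell, Ctnnbip1, an inhibitor that binds beta-catenin, with 23.0 FPKM in iKO and 41.1 in WT cells (1.78-fold lower, q = 0.000839 in the authors' deposited table); the list's median was -0.05. In cKO against WT cells Prickle2 was called lower, with 9.49 FPKM in cKO and 19.2 in WT cells, and in anagen iKO against Het cells 0 of 16 were called. From anagen to telogen 2 rose and 1 fell in iKO cells and likewise in controls: Prickle2, a planar polarity protein, had 25.0 FPKM in telogen iKO and 10.9 in anagen iKO cells, and 19.9 in telogen WT and 11.2 in anagen Het cells. Btrc, a ligase subunit that marks beta-catenin for breakdown, also rose in both, and Prickle1 fell in both.

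Of 16 WNT feedback and target genes, 15 were tested in each replicated comparison. Between second telogen iKO and WT cells 3 rose and 2 fell: Tnfrsf19 had 11.5 FPKM in iKO and 4.47 in WT cells, Wif1, a secreted WNT inhibitor, 37.2 in iKO and 15.3 in WT cells, and Cd44 101 in iKO and 44.5 in WT cells, whereas Nkd1, an inhibitor that WNT signalling induces, had 2.04 in iKO and 8.28 in WT cells (each q = 0.000444 in the authors' deposited table). Nkd2 also fell. The list's median was 0.20. Between telogen and anagen iKO cells 6 rose and 3 fell, with a median of 0.38: Axin2, the best known feedback target, had 12.5 FPKM in telogen iKO and 3.73 in anagen iKO cells, and Myc 139 in telogen iKO and 20.3 in anagen iKO cells. Between telogen WT and anagen Het cells 6 rose and 5 fell, with a median of 0.07: Axin2 had 10.99 FPKM in telogen WT and 3.67 in anagen Het cells, and Sfrp1, a secreted WNT inhibitor, 151 in telogen WT and 527 in anagen Het cells. In cKO against WT cells 5 were called higher and 2 lower, and in anagen iKO against Het cells 1 higher and 4 lower.

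Of 18 WNT ligands, 14 were tested between second telogen iKO and WT cells, with 4 risers and 2 that fell. Wnt10a had 25.0 FPKM in iKO and 13.4 in WT cells (q = 0.000444 in the authors' deposited table), whereas Wnt2, Wnt5a and Wnt2b were called at levels between 0.116 and 1.17 FPKM. Between telogen and anagen iKO cells 5 of 14 rose and 3 fell, and between telogen WT and anagen Het cells 3 of 13 rose and 4 fell. Wnt3 had 6.32 FPKM in telogen iKO and 1.29 in anagen iKO cells, and 5.16 in telogen WT and 1.14 in anagen Het cells. Wnt5b had 8.74 FPKM in telogen iKO and 33.2 in anagen iKO cells, and 10.6 in telogen WT and 33.0 in anagen Het cells. Wnt5a had 0.892 FPKM in telogen iKO and 4.46 in anagen iKO cells. In cKO against WT cells 3 of 14 were called higher and 0 lower, and in anagen iKO against Het cells 1 of 11 higher and 2 lower. Wnt1 was listed at 0 in all of these groups.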

How the data were processed

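Polyadenylated RNA of sorted cells was extracted with Trizol-LS and made into libraries with Illumina's TruSeq kit, per the labels' protocols. Reads were handled with TopHat, Cufflinks and Cuffdiff against mm9, by the submitters' processing notes, with versions and settings not given in the sources used here. For each group, the authors deposited FPKM as 1 pooled value per group in 3 tables (anagen pair, telogen pair, and a joint table of 21 pairs). Per the file headers, the log2 fold is the authors' ratio of both FPKM values, and the test statistic is a score deposited by the authors. No p-value deposited by the authors is below 5e-05, and the authors' q-value in the joint table is adjusted over all 21 pairs. Because tables were scaled separately (joint levels differed by -0.08 in the anagen groups and 0.06 in the telogen groups, log2), levels are compared within a table only.

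Here members were matched by symbol, folds were signed as knockout over control or later over earlier stage, and the SE was taken as fold over statistic. The reading of pairs, signs and calls was tested on simulated data. Members, lists and comparisons were chosen with earlier results of these data known. Beside the members, named genes are Foxc1, up to 4 called genes per list and comparison by lowest deposited p, the neighbours of Fzd9, and 5 genes by likeness to Fzd9, Lgr5 and Lgr6; other list genes named at their calls were chosen after their values were seen. Alternatives were a q of 0.01, at least 1 FPKM in both groups, the joint table, re-centring on the median gene, and pseudocounts of 1 and 0.1. Cuffdiff's starts count from 0 and were raised by 1. Python 3.11.15 and pandas 2.3.3 were used.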

Additional observations from a re-analysis of the deposited data

How the results depend on the processing

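With a q below 0.01, the members called numbered 2 and not 3 between anagen iKO and Het cells (Fzd9 and Lgr6), 1 and not 2 between second telogen iKO and WT cells (Fzd9), 2 and not 5 between second telogen and anagen iKO cells (Fzd3 and Lgr6), 2 and not 4 between second telogen WT and anagen Het cells (Lgr5 and Lgr6), and 1 and not 2 between second telogen iKO and cKO cells (Fzd3). With at least 1 FPKM in both groups, Fzd9 was left out of every comparison with a knockout group. The count was then 0 and not 1 for second telogen cKO against WT cells and 1 and not 2 for second telogen iKO against WT cells. It was 2 and not 3 for anagen iKO against Het cells. The call of Fzd9 between second telogen and anagen iKO cells dropped out as well. In the joint table the cKO count was 2, with Fzd3 called. No share of all genes called is given at these settings, so these counts show only which member calls held. After re-centring on the median gene, all 60 member folds stayed within 1 SE, and the sign turned for Fzd6 in anagen iKO against Het cells, which was not called (-0.0052 before and 0.0059 after). With FPKM + 1, 6 folds moved by more than their SE, 5 of them of Fzd9: its log2 fold was -2.55, -2.75 and -2.50 in second telogen iKO, second telogen cKO and anagen iKO cells over their controls. With genes reaching 1 FPKM, 2 of the 5 genes most like Fzd9, 3 of those most like Lgr5 and 3 of those most like Lgr6 were shared with the lists given above; with log2(FPKM + 0.1) the numbers were 3, 5 and 4. No paired analysis was possible because each group has 1 pooled value; for the same reason no library could be left out, and a call that rests on 1 library could not be seen. Sequencing depth is unknown, so the precision of levels below 1 FPKM, Fzd9 in the knockouts among them, is too.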

Other observations

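The tables hold 3 further Frizzled genes. Fzd5, a WNT receptor that signals through beta-catenin, had 4.57 FPKM in second telogen iKO, 3.08 in second telogen cKO and 11.4 in second telogen WT cells, and it fell 2.50-fold in iKO against WT cells (log2 fold -1.32, SE 0.29, q = 0.000444 in the authors' deposited joint table) and 3.73-fold in cKO against WT cells (log2 fold -1.90, SE 0.35 in their telogen table); both comparisons share the WT libraries. In anagen it had 5.11 FPKM in iKO and 4.58 in Het cells and was not called (q = 0.758 in the authors' deposited anagen table). It was 2.65-fold higher in second telogen WT (11.4 FPKM) than in anagen Het cells (4.32 FPKM; q = 0.000444), whereas second telogen iKO (4.57) and anagen iKO cells (4.82) were not called apart (q = 0.841). Whether the knockout difference of Fzd5 differs between the stages was not tested. Fzd10, the closest relative of Fzd9, had 3.67 FPKM in second telogen iKO and 2.18 in second telogen WT cells and rose 1.69-fold (q = 0.0363 in the authors' deposited joint table); in cKO against WT cells it had 2.90 and 2.09 FPKM and was not called. Fzd4 stayed at or below 1.71 FPKM in the 5 replicated groups and had 7.58 FPKM in the anagen II and 3.19 in the first telogen library. Those Shh-Het groups have 1 library each and another strain. Their fibroblast and dermal papilla markers summed to 1026 FPKM in anagen II and 2107 in first telogen cells, against 13.6 to 103 in the replicated groups. The part of these markers in the Fzd4 values was not tested. Smo, the Hedgehog signal transducer of the same receptor class, was not called in any of the 3 comparisons of a knockout with its control.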
